A study of Mus musculus with 6 samples.

Results

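Wnt ligands reach the nucleus through β-catenin, a protein that is destroyed in the cytoplasm until a Wnt binds its receptors, and that then joins TCF/LEF proteins on DNA to switch target genes on. R-spondins strengthen the signal through the receptors Lgr4, Lgr5 and Lgr6, by keeping the ubiquitin ligases Znrf3 and Rnf43 away from the Wnt receptors. Several targets restrain the pathway in turn: Axin2 is a scaffold of the complex that destroys β-catenin, Notum is a secreted enzyme that removes the lipid from Wnt ligands, and Znrf3 removes Wnt receptors from the cell surface. In the intestine the pathway maintains the stem cells and the Paneth cells of the crypt, and the transcription factor Sox9 is one of its crypt targets.

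The genes described here are 10 of the 14701 in each sample's table, chosen by symbol: the TCF/LEF factors Lef1, Tcf7l1 and Tcf7l2, their partner Ctnnb1 (β-catenin), the R-spondin receptors Lgr4 and Lgr6, the feedback genes Axin2, Notum and Znrf3, and Sox9. RNA from IEC 4.1, a mouse line labelled as intestinal epithelium, was sequenced in 6 samples. Replicates 1, 2 and 4 received interferon-gamma, an inflammatory cytokine, for 6 h at a dose of 10 ng/ml, and Ctrl replicates 2, 3 and 4 did not. The labels give no genotype change in either group and do not say whether the replicates were separate cultures, so each p-value measures the spread between these samples only, which may be technical. In bulk RNA, fewer cells of a type and less RNA per cell cannot be told apart. The comparison asks how these genes stand after 6 h of the cytokine, at this single time. No time is given for Ctrl, so whether both groups spent the same time in culture is not known.

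The libraries held 17490689 to 18678543 estimated counts. The treatment was visible in every library: Irf1, an early interferon transcription factor, averaged 1138 ± 14.4 CPM (counts scaled to library size) with interferon-gamma and 95.4 ± 5.42 CPM in Ctrl (SD, n = 3 each). Epithelial identity markers were nearly absent. Of 15 such genes 9 had a row and 0 were abundant enough to test, their summed level was 0.55 to 0.70 TPM (transcript abundance corrected for gene length) with interferon-gamma and 0.72 to 1.14 TPM in Ctrl, and the adhesion gene Cdh1 had 0 or 1 count in each library. Of 9 intestinal stem cell markers 6 had a row and 3 were tested. These were Rgmb, at 11.75 to 12.7 TPM with interferon-gamma and 17.9 to 18.9 TPM in Ctrl, with Sox9 and Axin2, while Lgr5, Ascl2 and Olfm4 had no row in the tables analysed here. Of 10 enterocyte markers 1 was tested, Anpep, and of 11 secretory markers 2, Cck and Dclk1, each under 6 TPM in every library. Of 14 mesenchymal markers 12 were tested, and 5 rose (41.7%, against 19.9% of all genes tested) and 6 fell (50%, against 18.1%). Vim and Dcn were among those that rose, and Pdgfra, Fn1 and 3 collagen genes among those that fell. The sum of the mesenchymal markers was 4188 to 4442 TPM with interferon-gamma and 4212 to 4399 TPM in Ctrl. Of this sum Vim alone averaged 2875 TPM with interferon-gamma and 2514 TPM in Ctrl. The part of these marker changes in the results was not tested.

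All 10 genes passed the low-count filter. With interferon-gamma 6 of them fell (Lef1, Tcf7l2, Lgr6, Notum, Znrf3 and Sox9), 1 rose (Axin2) and 3 passed no threshold (Tcf7l1, Ctnnb1 and Lgr4), at an adjusted p under 0.05 in edgeR's quasi-likelihood test. Of the 11423 genes tested, 18.1% fell and 19.9% rose, 38.1% in all, which is the background for these counts. The 10 genes were chosen with earlier results of these data known. Setting them beside all genes therefore describes them and tests nothing. The split of calls over all genes depended on scaling, with 2278 risen and 2069 fallen after TMM scaling, 1775 and 2823 after upper-quartile scaling, and 1644 and 3124 on total counts. The median log2 fold change of the 10 genes was -0.48 and that of all genes tested was 0.01. The largest falls were those of Lgr6 and Lef1, whose mean CPM in Ctrl was 3.75 and 3.52 times that with interferon-gamma. They are the 2 genes with a called fall of at least 2-fold, as had 1.05% of all genes tested, and Axin2 is the 1 with a called rise of that size, as had 4.03%. Axin2 passed the low-count filter only through its treated libraries, with 14, 14 and 29 counts there and 10, 7 and 10 in Ctrl. Its place among the risen genes is therefore a description only. The groups did not overlap for 9 of the 10 genes, in CPM and in TPM, against 48% and 49.3% of all genes tested.

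**Figure D1:**
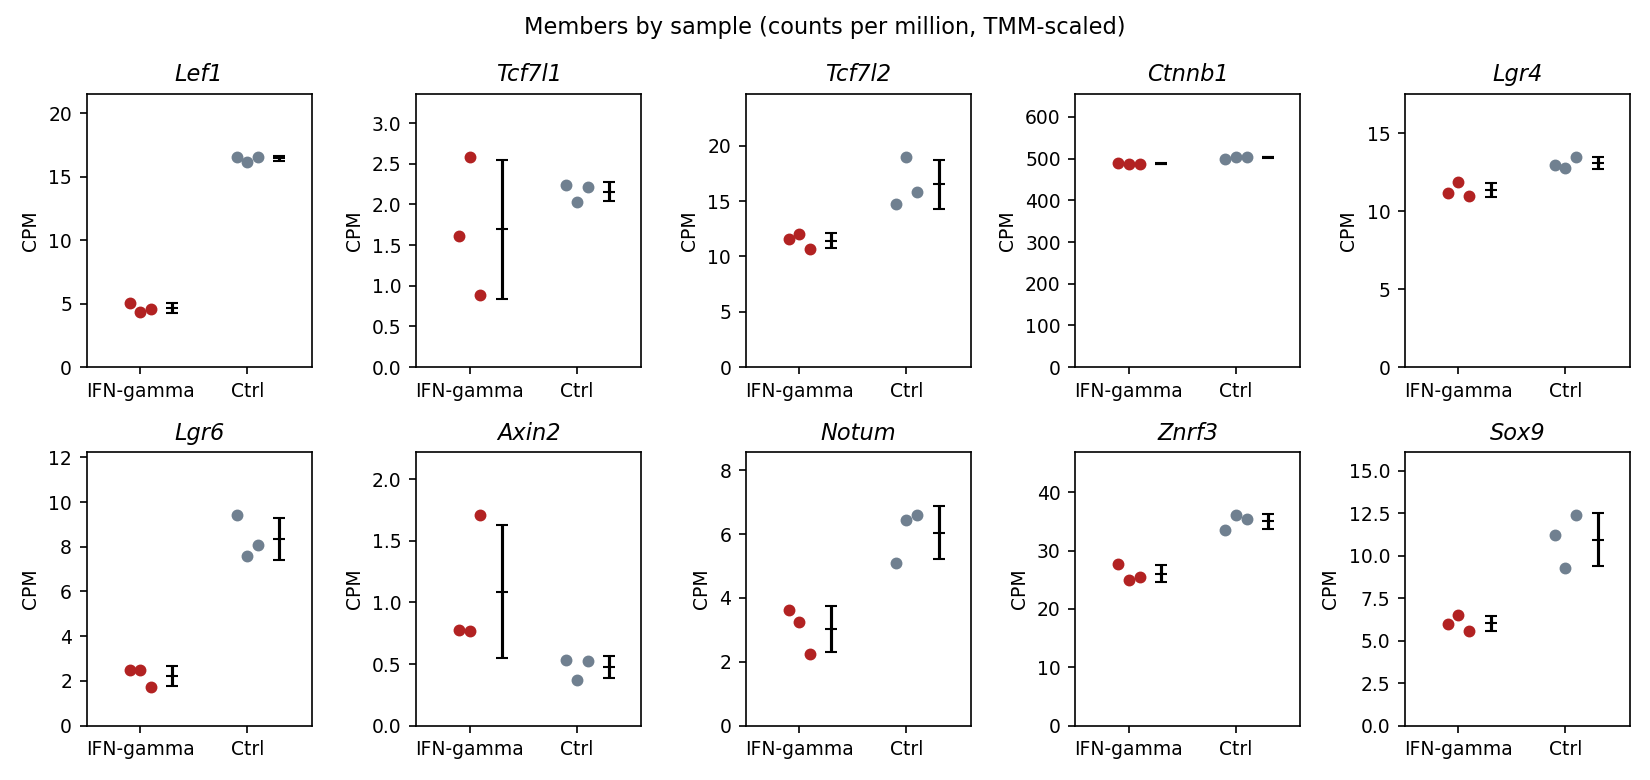
CPM of each of the 10 genes in every sample (points), on an axis from 0, with interferon-gamma left of Ctrl, and the mean ± SD of each group (n = 3) beside the points. Lef1 lay between 4.35 and 5.06 CPM with interferon-gamma and between 16.2 and 16.6 CPM in Ctrl, while the Tcf7l1 groups overlapped.

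Lef1, the TCF/LEF factor known for its dependence on β-catenin to activate targets, had the most uniform large fall. Lef1 (NCBI Gene 16842, chromosome 3, 131110297 to 131224357, GRCm38.p6) had 91, 79 and 78 counts in the treated libraries, against 312, 304 and 314 in Ctrl. These were 5.06, 4.35 and 4.59 CPM with interferon-gamma and 16.6, 16.2 and 16.6 CPM in Ctrl. The groups lay far apart and the Ctrl libraries were nearly equal. It changed by a log2 fold of -1.82 ± 0.064 (± SE between replicates, n = 3 per group, edgeR adjusted p = 5.03e-12), which ranks 20 among the called falls of all genes. It ran from -1.89 to -1.77 over the alternatives tried.

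The 250 bases before the RefSeq start of Lef1 are shown first, then the 250 bases before a later RefSeq start inside the gene. They are shown because Lef1 was the TCF/LEF factor that fell most. The later start has the one of its 4 windows with a TCF/LEF core. Capitals mark the core, searched as CTTTGA or its reverse complement TCAAAG.
Lef1, chr3:131110047-131110296, plus strand, GRCm38.p6: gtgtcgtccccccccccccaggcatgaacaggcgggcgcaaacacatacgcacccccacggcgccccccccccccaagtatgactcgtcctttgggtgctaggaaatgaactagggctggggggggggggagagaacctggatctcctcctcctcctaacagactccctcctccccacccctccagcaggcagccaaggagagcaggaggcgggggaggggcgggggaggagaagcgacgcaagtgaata
Lef1 inner start, chr3:131156044-131156293, plus strand, GRCm38.p6: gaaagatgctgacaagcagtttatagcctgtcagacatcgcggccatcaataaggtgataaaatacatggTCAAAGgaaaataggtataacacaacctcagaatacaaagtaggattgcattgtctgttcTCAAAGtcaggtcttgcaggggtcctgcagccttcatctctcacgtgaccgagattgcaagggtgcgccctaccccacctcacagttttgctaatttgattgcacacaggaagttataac
RefSeq gave 12 promoter windows of 300 bases (250 before the start and 50 after it) for 7 of the 10 genes. The core stood in 1 of these 12, against 16% of all 32851 such windows. The interferon-linked motifs GAS (TTCNNNGAA, the same on both strands) and the ISRE core (GAAA, any 2 bases, GAAA, on either strand) stood in 0 of the 12, against 8.3% and 3.44% of all windows. The absence of a match says only that these letters were not in these windows, and the tables do not say which start the reads came from.

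Tcf7l2, the TCF factor needed for the crypts of the small intestine in mice, fell less. Tcf7l2 (NCBI Gene 21416, chromosome 19, 55741797 to 55933659) had 208, 218 and 182 counts with interferon-gamma, against 278, 357 and 300 in Ctrl. Its level was 11.6, 12.0 and 10.7 CPM with interferon-gamma and 14.8, 19.02 and 15.8 CPM in Ctrl. The groups did not overlap, and Ctrl replicate 3 was the highest library. Tcf7l2 changed by a log2 fold of -0.53 ± 0.12 (edgeR adjusted p = 0.000221). The tables list 60 transcripts for the gene, and these gene-level counts do not separate them.

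Tcf7l1, known mainly as a repressor of Wnt targets, was low and uneven. Tcf7l1 (NCBI Gene 21415, chromosome 6, 72626371 to 72789045) had 29, 47 and 15 counts in treated replicates 1, 2 and 4, against 42, 38 and 42 in Ctrl. The treated libraries spread over both sides of the Ctrl values, and treated replicate 2 was the highest of all 6. The log2 fold change was -0.33 ± 0.42 (edgeR adjusted p = 0.334), and limma-voom's 95% interval ran from -1.03 to 0.12. Without treated replicate 2 the change was -0.78 (adjusted p = 0.0258), and without treated replicate 4 it was -0.04 (adjusted p = 0.92), so 1 library decides the value.

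The TCF/LEF family was also described by TPM, in which genes can be set side by side. Tcf7, the fourth gene of the family, was the most abundant, with 12.4, 11.8 and 11.5 TPM with interferon-gamma and 14.6, 15.1 and 14.2 TPM in Ctrl. Its log2 fold change of -0.18 passed the test narrowly (edgeR adjusted p = 0.0479) and lost the call in 9 alternatives, DESeq2 (adjusted p = 0.106) and limma-voom (0.0506) among them. Lef1 made up 11.5%, 11.7% and 11.3% of the summed TPM of the 4 genes with interferon-gamma, against 27.5%, 27.3% and 29.5% in Ctrl. Tcf7 made up 57.3% to 61.9% with interferon-gamma and 43.5% to 47.3% in Ctrl, so the family held less Lef1 and proportionally more Tcf7 in each treated library. The summed level was 18.6 to 20.8 TPM with interferon-gamma and 30.8 to 34.8 TPM in Ctrl. TPM are not TMM-scaled, and the median log2 TPM ratio of all genes tested was -0.10. Falls in TPM are therefore larger by about that amount for the median gene, and the gap to the fitted test differs between genes. For Lef1 the ratio of means, interferon-gamma over Ctrl, was 0.25 in TPM and 0.284 in CPM. Shares and ratios within a sample are not touched by the scaling of libraries, but they carry such differences between genes.

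**Figure D2:**
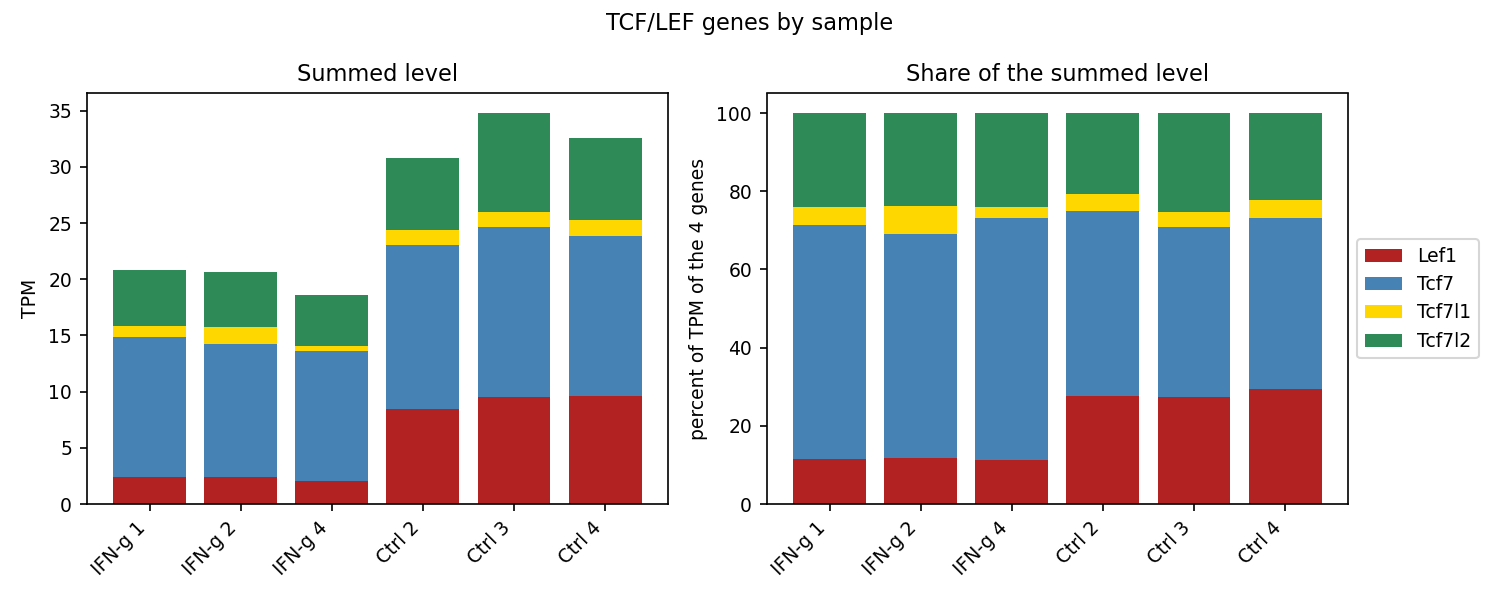
TPM of the 4 TCF/LEF genes stacked for each sample (left) and as percent of their sum (right), with the interferon-gamma samples left of Ctrl. The Lef1 share was 11.3% to 11.7% with interferon-gamma and 27.3% to 29.5% in Ctrl.

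The unequal fall of Lef1 and Tcf7l2 was also seen as a ratio within each sample, which does not depend on the scaling of libraries. The ratio of Lef1 to Tcf7l2 in TPM was 0.48, 0.489 and 0.469 with interferon-gamma, against 1.33, 1.07 and 1.32 in Ctrl. Lef1 was thus the lower of the pair in every treated library and the higher in every Ctrl library. With a pseudocount of 0.1 TPM, the log2 ratio was -1.03 ± 0.028 with interferon-gamma and 0.30 ± 0.17 in Ctrl (SD, n = 3 each), a difference of -1.33 (exact two-sided permutation p = 0.1, the smallest that 3 against 3 allows, and 0.15 adjusted over the 3 ratios tested). The log2 ratio of Tcf7l1 to Tcf7l2 differed by 0.09 ± 0.38 (SE, exact permutation p = 0.9, adjusted 0.9), which is less than the spread between replicates.

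Ctnnb1, which encodes β-catenin, was by far the most abundant of the 10 genes and passed no threshold. Ctnnb1 (NCBI Gene 12387, chromosome 9, 120933400 to 120960507) had 489, 488 and 488 CPM with interferon-gamma, against 500, 505 and 503 CPM in Ctrl. All treated values lay under all Ctrl values, by a step that is small beside the level. The log2 fold change was -0.04 ± 0.0039 (SE between replicates, edgeR adjusted p = 0.513), with a 95% interval from -0.14 to 0.05 in limma-voom. Both tests estimate spread partly from the other genes, so they allow for more spread than this SE. β-catenin is controlled mainly as a protein, which these RNA counts do not measure.

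The R-spondin receptors differed in the size of their change. Lgr6 (NCBI Gene 329252, chromosome 1, 134983300 to 135105374) had 45, 45 and 28.9 counts with interferon-gamma, against 177, 142 and 153 in Ctrl. This was 2.50, 2.48 and 1.71 CPM with interferon-gamma and 9.41, 7.57 and 8.07 CPM in Ctrl, so the groups lay far apart, with treated replicate 4 the lowest. Its log2 fold change was -1.90 ± 0.20 (edgeR adjusted p = 2.07e-09), the largest fall of the 10 genes and number 16 among the called falls of all genes. The count of treated replicate 4 was the single one of these that was not whole.

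Lgr4, the receptor that in mice is expressed broadly through the crypt, stayed closer to its Ctrl level. Lgr4 (NCBI Gene 107515, chromosome 2, 109917647 to 110014257) had 11.2, 11.9 and 11.01 CPM with interferon-gamma, against 13.0, 12.8 and 13.5 CPM in Ctrl. The groups did not overlap, but the step was small. Its log2 fold change was -0.20 ± 0.041 (edgeR adjusted p = 0.0794), with a limma-voom 95% interval from -0.39 to -0.02. Scaling by the upper quartile gave a call (adjusted p = 0.0272), as did total counts (adjusted p = 0.0179), so whether Lgr4 is called depends on scaling.

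The ratio of Lgr6 to Lgr4 in TPM was 0.202, 0.235 and 0.171 with interferon-gamma, against 0.756, 0.586 and 0.654 in Ctrl. Lgr4 was the more abundant of the pair in all 6 libraries, and by a wider margin in each treated library. With a pseudocount of 0.1 TPM, the log2 ratio differed by -1.59 ± 0.15, interferon-gamma minus Ctrl (SE, exact two-sided permutation p = 0.1, the smallest possible, and 0.15 adjusted over 3 ratios). The size depended on the pseudocount, and with 1 TPM the difference was -0.95. The upstream sequence of both receptors is shown because they belong to one family and changed by unequal amounts. None of the 3 motifs stood in either window, so no base is in capitals.
Lgr6, chr1:135105375-135105526, minus strand, GRCm38.p6: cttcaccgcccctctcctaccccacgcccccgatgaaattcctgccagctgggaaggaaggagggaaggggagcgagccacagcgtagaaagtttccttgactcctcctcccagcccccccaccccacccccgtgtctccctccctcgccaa
Lgr4, chr2:109917397-109917646, plus strand, GRCm38.p6: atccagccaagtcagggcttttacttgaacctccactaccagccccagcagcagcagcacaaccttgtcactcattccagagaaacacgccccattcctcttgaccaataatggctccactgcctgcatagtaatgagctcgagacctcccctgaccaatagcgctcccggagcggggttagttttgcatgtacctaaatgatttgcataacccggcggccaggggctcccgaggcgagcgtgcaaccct
The Lgr6 stretch is the 152 bases of its window that lie before the RefSeq gene, and 65.1% of them are G or C, against 55.6% of the 250 bases shown for Lgr4.

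**Figure D3:**
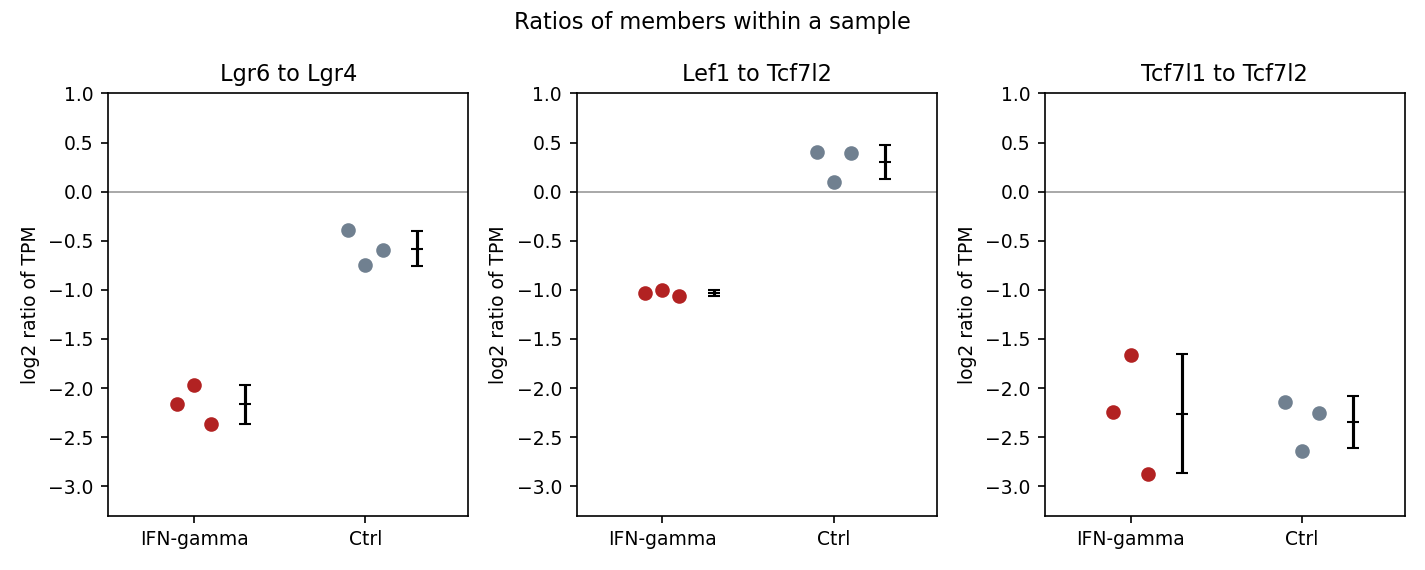
Log2 ratio of TPM of 3 pairs of genes in each sample (points), with interferon-gamma left of Ctrl and the mean ± SD of each group (n = 3) beside the points. The ratios of Lgr6 to Lgr4 and of Lef1 to Tcf7l2 separated the groups, and that of Tcf7l1 to Tcf7l2 did not.

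Among the feedback genes Notum and Znrf3 fell, while the called rise of Axin2 rests on few counts and was lost in 3 alternatives. Notum (NCBI Gene 77583, chromosome 11, 120653788 to 120661193) fell, with 65, 59 and 38 counts with interferon-gamma and 96, 121 and 125 in Ctrl. Its level was 3.62, 3.25 and 2.24 CPM with interferon-gamma and 5.10, 6.45 and 6.59 CPM in Ctrl. Treated replicate 4 was the lowest library and the groups did not overlap. Notum changed by a log2 fold of -0.99 ± 0.23 (edgeR adjusted p = 5.02e-05), and it was -0.82 without treated replicate 4.

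Znrf3 (NCBI Gene 407821, chromosome 11, 5276329 to 5444847), the best counted of the feedback genes, fell by 0.43 ± 0.056 on the log2 scale (edgeR adjusted p = 3.07e-05). It had 498, 452 and 433 counts with interferon-gamma, against 632, 677 and 671 in Ctrl. These were 27.7, 24.9 and 25.5 CPM with interferon-gamma and 33.6, 36.1 and 35.4 CPM in Ctrl. Its fall was small beside that of Notum but even, with each group within a narrow range.

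Axin2, often read as a marker of Wnt activity, was the single gene of the 10 that rose, and it was the lowest expressed. Axin2 (NCBI Gene 12006, chromosome 11, 108917828 to 108950783) had 14, 14 and 29 counts with interferon-gamma, against 10, 7 and 10 in Ctrl. Treated replicates 1 and 2 stood only a few counts above Ctrl, and treated replicate 4 stood well above the other two. The log2 fold change was 1.16 ± 0.37 (edgeR adjusted p = 0.0172), and the call was lost without treated replicate 4 (log2 fold change 0.69, adjusted p = 0.186), without Ctrl replicate 3 (1.00, adjusted p = 0.0606) and with DESeq2 (1.17, adjusted p = 0.0558). At these counts the size of the rise is uncertain, with a 95% interval from 0.31 to 1.78 in limma-voom. Axin2 entered the test only through its treated libraries, where it is high, and it was also called with no low-count filter.

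Sox9 (NCBI Gene 20682, chromosome 11, 112782210 to 112787757) fell to 108, 118 and 95 counts with interferon-gamma, against 211, 174 and 235 in Ctrl. Its level was 6.01, 6.50 and 5.59 CPM with interferon-gamma and 11.2, 9.27 and 12.4 CPM in Ctrl. The groups did not overlap, and the Ctrl libraries varied more than the treated ones. The log2 fold change was -0.86 ± 0.14 (edgeR adjusted p = 6.65e-06). Sox8, a gene of the same SOX group that was measured at a lower level, fell as well, with 0.51, 0.33 and 0.26 TPM with interferon-gamma and 1.04, 0.92 and 1.2 TPM in Ctrl (log2 fold change -1.40, edgeR adjusted p = 0.000301).

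**Figure D4:**
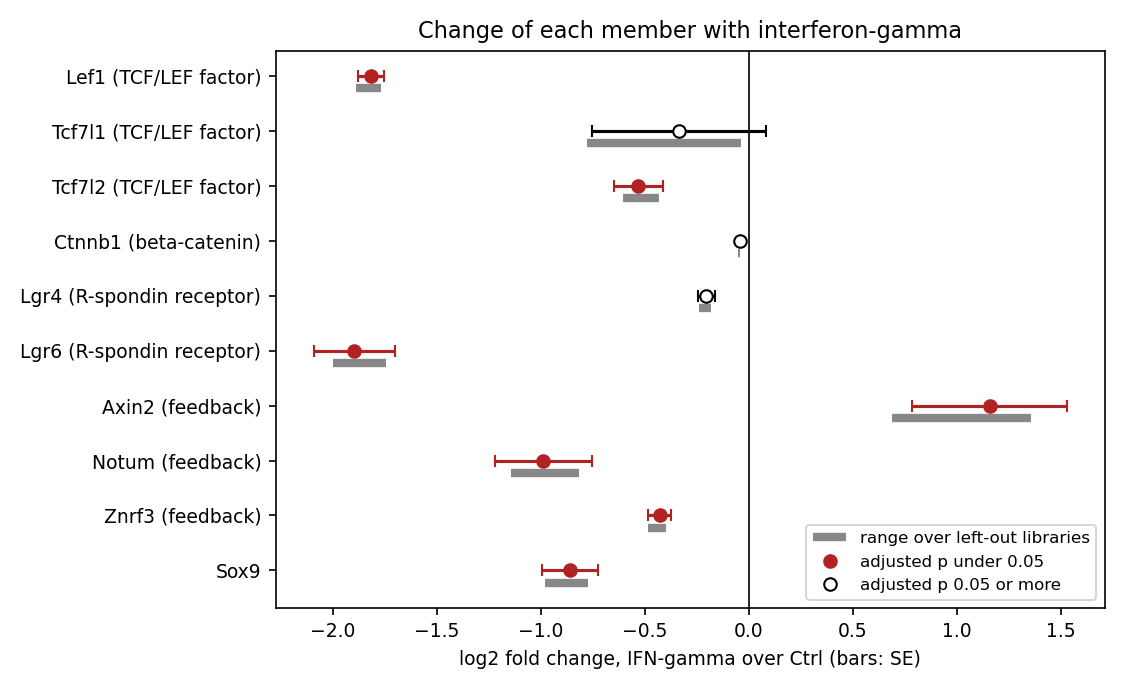
Log2 fold change of each of the 10 genes, interferon-gamma over Ctrl, with its SE between replicates (n = 3 per group) and, under it, the range over the 6 fits that each leave out 1 library (grey). Filled points passed an adjusted p under 0.05, and Axin2, at 1.16, is the one filled point above 0.

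The order of levels among the 10 genes changed with the treatment. By mean TPM, Ctnnb1 stood first in both groups, at 222 ± 6.09 with interferon-gamma and 247 ± 10.2 in Ctrl, and Axin2 last, at 0.43 ± 0.217 with interferon-gamma and 0.207 ± 0.032 in Ctrl (SD, n = 3 each). Lef1 was the seventh with interferon-gamma, at 2.30 ± 0.182 TPM and beside Sox9 (2.37 ± 0.174) and Notum (2.59 ± 0.68), whose ranges overlapped its own. In Ctrl it was the second, at 9.19 ± 0.617 TPM, with Znrf3 (8.68 ± 0.624) and Tcf7l2 (7.49 ± 1.24) overlapping it. Lgr6 stood below Tcf7l1 with interferon-gamma, at 0.733 ± 0.14 and 0.997 ± 0.485 TPM, where their libraries overlapped. In Ctrl it stood above Tcf7l1, at 2.98 ± 0.308 and 1.38 ± 0.056 TPM.

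Of the treated libraries, replicate 4 had the lowest CPM for 7 of the 10 genes and the highest for 1, Axin2. Without that library 6 genes still fell and 0 rose. Over the 6 fits that each leave out 1 library, 6 to 7 genes fell and 0 to 1 rose, against 6 and 1 with all libraries. On GENCODE M21, exons of Lef1, Tcf7l1, Ctnnb1, Axin2 and Notum share bases with genes on the opposite strand, with 1208 bases in Lef1, 759 in Ctnnb1 and 708 in Notum, and no source used here says whether reads were counted by strand. The strand column of the deposited tables gives the plus strand for Tcf7l1, Lgr6 and Notum, which GENCODE M21 places on the minus strand. It equals GENCODE M21 for all 7180 plus-strand genes matched by symbol and for 76.2% of the 7021 minus-strand genes. Whether that column entered the counting, and so the values of these 3 genes, was not tested.

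The rest of the pathway was read from lists of 168 genes by role, of which 130 had a row and 106 were tested. Of these 19 rose (17.9%), 35 fell (33%) and 52 passed no threshold, with a median log2 fold change of -0.07. Over all genes tested 19.9% rose and 18.1% fell, which is also the background for each list below. The lists were chosen with earlier results of these data known, so their shares are a description and not a test of the pathway. The Wnt pathway term of KEGG in the deposited tables, looked up after the values were seen, held 139 genes of which 9 are among the 10 described here. Leaving those out, 19 of its 105 tested genes rose and 29 fell (18.1% and 27.6%).

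Of 24 ligand genes 13 had a row and 6 were tested, and 1 rose (16.7%) and 5 fell (83.3%). Wnt4 rose, with 28.7, 30.0 and 30.3 TPM with interferon-gamma and 9, 9.61 and 9.01 TPM in Ctrl (log2 fold change 1.80 ± 0.054, edgeR adjusted p = 1.85e-15). Wnt10a, the most abundant of the tested ligands, fell to 48.0 ± 1.41 TPM with interferon-gamma, against 78.9 ± 2.36 TPM in Ctrl (SD, n = 3 each). Its relative Wnt10b, known for promoting bone formation, averaged 5.43 TPM with interferon-gamma and 10.7 TPM in Ctrl (log2 fold change -0.86), and Wnt6 averaged 8.23 TPM with interferon-gamma and 13.9 TPM in Ctrl (log2 fold change -0.65). Of 11 genes for ligand secretion and transport, 9 were tested, 2 rose (22.2%, near the 19.9% of all genes tested) and 0 fell in edgeR. The 2 were the retromer subunits Vps26a (log2 fold change 0.28) and Vps35 (0.18, a call lost in 3 alternatives). For both, the groups overlapped in TPM and did not overlap in CPM.

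Of 17 receptor and co-receptor genes 14 were tested, 3 rose (21.4%) and 5 fell (35.7%), against 19.9% and 18.1% of all genes tested. Ror1, a receptor tyrosine kinase-like receptor of Wnt5a, rose to 1.40 ± 0.115 TPM with interferon-gamma, against 0.523 ± 0.127 TPM in Ctrl (log2 fold change 1.49, edgeR adjusted p = 3.89e-07). Its relative Ror2 fell, at 4.91 TPM with interferon-gamma and 7.24 TPM in Ctrl (log2 fold change -0.45). Among the Frizzled receptors, which bind Wnts directly, Fzd5 rose by 0.56 and Fzd2 fell by 0.32 on the log2 scale. Related receptors thus changed in both directions, as did genes in general.

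Of 20 extracellular inhibitor genes 5 were tested, 1 rose (20%) and 3 fell (60%). Apcdd1, a membrane inhibitor of Wnt signalling, fell to 2.66, 2.59 and 2.44 TPM with interferon-gamma, against 6.47, 6.69 and 7.14 TPM in Ctrl (log2 fold change -1.29, edgeR adjusted p = 1.69e-09). Trabd2b, whose product is a protease that cuts Wnt ligands, fell to 1.08 ± 0.221 TPM with interferon-gamma, against 3.32 ± 0.51 TPM in Ctrl (log2 fold change -1.51). Igfbp4, a binding protein of insulin-like growth factors, fell by 0.31 on the log2 scale. Sfrp1, which binds Wnts in the extracellular space, rose at a low level, with 0.62, 0.60 and 0.69 TPM with interferon-gamma and 0.18, 0.11 and 0.19 TPM in Ctrl (log2 fold change 2.06). With 29, 30 and 32 counts in the treated libraries and 9, 5 and 9 in Ctrl, Sfrp1 passed the low-count filter only through the treated ones. Of 11 further negative feedback genes 4 were tested and 1 fell (25%). This was Ctnnbip1, whose product keeps β-catenin from TCF proteins (log2 fold change -0.46, edgeR adjusted p = 3.10e-06).

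Of 21 genes for cytoplasmic transducers and the destruction complex 20 were tested, 3 rose (15%), 3 fell (15%) and 14 passed no threshold, against 19.9% and 18.1% of all genes tested. With upper-quartile scaling 6 fell, and on total counts 7. Amer1, a scaffold that binds the tumour suppressor Apc, rose by 0.60 on the log2 scale (edgeR adjusted p = 1.05e-06), and Btrc, the ligase subunit that recognises β-catenin, by 0.22 (adjusted p = 0.0101, a call lost in 3 alternatives). In TPM the groups of Btrc overlapped, with 9.53, 9.75 and 9.31 with interferon-gamma and 8.35, 8.85 and 9.38 in Ctrl. Ccdc88c, a partner of Dishevelled, averaged 0.247 TPM with interferon-gamma and 0.673 TPM in Ctrl (log2 fold change -1.09), and Dvl2, a Dishevelled protein, fell by 0.24 on the log2 scale. Of 26 nuclear partners, which include Tcf7 and Ctnnbip1, 23 were tested, 3 rose (13%) and 6 fell (26.1%). The co-repressor Tle1 fell to 11.7 ± 0.696 TPM with interferon-gamma, against 22.4 ± 0.436 TPM in Ctrl (log2 fold change -0.79, edgeR adjusted p = 1.45e-09), while Sox4 and the kinase Hipk2 rose by 0.41 and 0.35 on the log2 scale. The rise of Hipk2 was in counts only. Its TPM overlapped between the groups, at 15.4, 12.6 and 12.0 with interferon-gamma and 12.6, 12.2 and 14.2 in Ctrl.

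Of 37 genes reported elsewhere as Wnt targets 25 were tested, 6 rose (24%) and 12 fell (48%), against 19.9% and 18.1% of all genes tested. Ccnd1, the cyclin of G1 entry, fell to 105.5, 96.55 and 95.8 TPM with interferon-gamma, against 222, 218 and 226 TPM in Ctrl (log2 fold change -1.05, edgeR adjusted p = 3.72e-13). Myc averaged 63.1 ± 1.99 TPM with interferon-gamma and 103 ± 3.91 TPM in Ctrl (log2 fold change -0.60). Fst, which encodes the activin-binding protein follistatin, rose the most of all the listed genes, with 118, 114 and 125 TPM with interferon-gamma and 3.09, 3.18 and 2.74 TPM in Ctrl (log2 fold change 5.42 ± 0.091, edgeR adjusted p = 1.96e-22). Jun, a subunit of the factor AP-1, rose by 0.61 on the log2 scale. Each of these targets answers to other pathways as well.

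**Figure D5:**
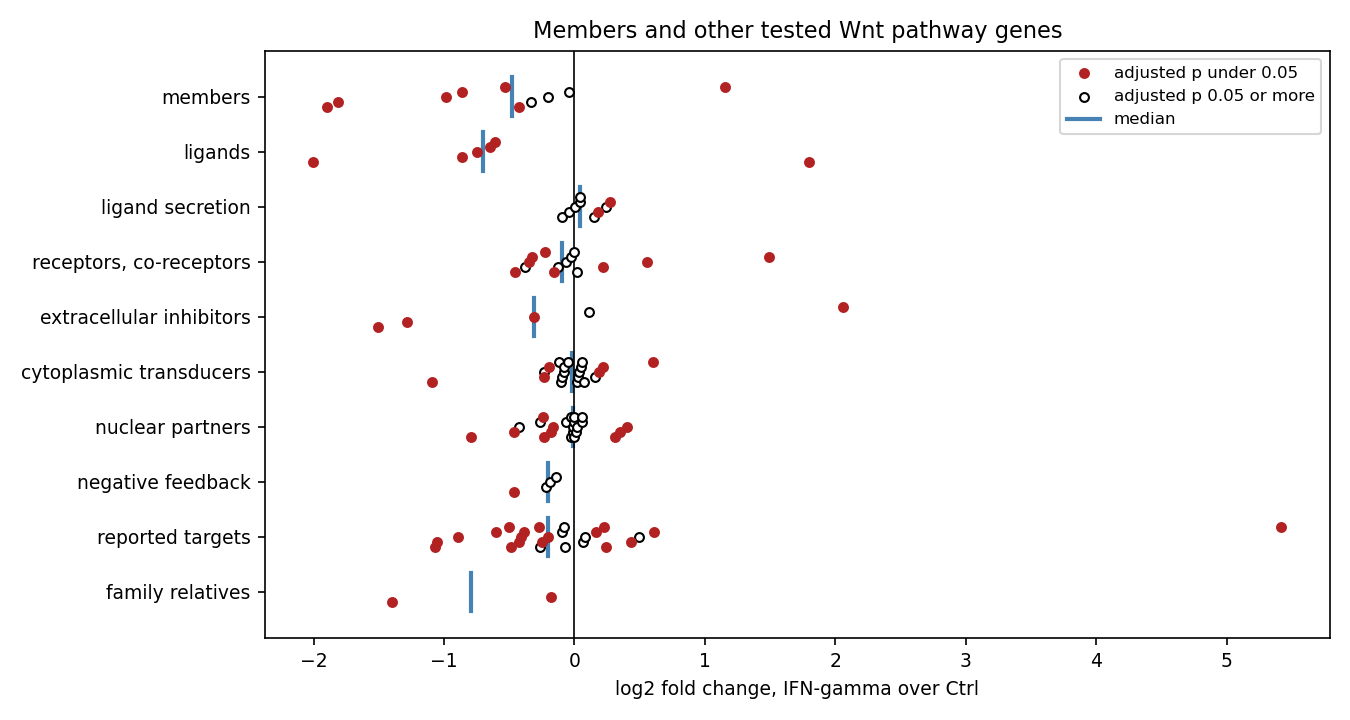
Log2 fold change, interferon-gamma over Ctrl, of the 10 genes (top, members) and of the other tested Wnt pathway genes by role, with the median of each group as a blue bar. Filled points passed an adjusted p under 0.05. Fst, at 5.42, is the point farthest to the right among the reported targets.

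Genes with patterns most like those of Lgr6 and Sox9 over the 6 samples were sought among 10973 tested genes averaging at least 1 CPM, by Pearson correlation of log2 CPM. For Lgr6 the nearest were the basement membrane collagen Col4a2 (r = 0.999), the Notch ligand Jag1 (0.999) and the phosphatase Dusp5 (0.999). For Sox9 they were Prpf4 (0.998), Twnk (0.996) and Pbx3 (0.996). The samples form 2 groups, so any gene that fell evenly correlates: 792 genes exceeded 0.95 with Lgr6 and 405 with Sox9. The likeness is one of shape and not of size, since the log2 fold change of Col4a2 was -0.41 and that of Jag1 was -1.38, against -1.90 for Lgr6.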

How the data were processed

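Each of the 6 samples had 1 table of 14701 genes. The authors deposited estimated counts beside TPM and FPKM values, per the file headers. In each library 6.8% to 7.37% of counts carried decimals. The tools HISAT and HISAT2 and the builds GRCm38.p6 and mm10 appear per the submitters' processing notes, without their roles. No source used here names the counter. The tables hold 0 genes that were at 0 in all 3 Ctrl libraries and 673 at 0 in each treated one, so genes found only after treatment are not analysed here.

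After rounding, counts went into edgeR 4.0.16 under R 4.3.3 (filterByExpr with a minimum count of 10, TMM scaling, glmQLFit with robust=TRUE, glmQLFTest), with Benjamini-Hochberg adjustment over the 11423 genes kept and a threshold of 0.05. CPM use TMM-scaled library sizes, and log2 CPM a prior count of 2, which draws low values together. Standard errors are between replicates' log2 CPM. Intervals came from limma 3.58.1 (voom). Ratios used TPM with a pseudocount of 0.1 and exact permutation tests. The code was tested on simulated data. Coordinates and promoters are those of RefSeq for GRCm38.p6. The 10 gene starts equal the deposited ones when both are rounded to 3 significant digits, which is too coarse to show that the annotations are the same.

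Alternatives were RLE, upper-quartile and total-count scaling, DESeq2 1.42.0, limma-voom, no filter, at least 1 CPM in 3 samples, a replicate block, and each library left out, and for ratios pseudocounts of 0.01 and 1 and the deposited FPKM. Members and lists were chosen with earlier results of these data known. Named genes are the 10 members, up to 4 genes of smallest adjusted p per list, Irf1 and the 3 nearest patterns of Lgr6 and Sox9. Gbp2 and Cxcl10, named by the same rule, averaged 2693 and 1329 CPM with interferon-gamma and 9.09 and 29.7 CPM in Ctrl. Protein sequences were not used here.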

Additional observations from a re-analysis of the deposited data

How the results depend on the processing

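Of 139 refits of the 10 genes, 133 kept their direction and their side of the threshold, 3 lost the call, all of Axin2, and 3 gained one (Lgr4 with upper-quartile and total-count scaling, and Tcf7l1 without treated replicate 2). Of these 0 changed sign. Axin2 could not be tested with at least 1 CPM in 3 samples. No gene of the 10 therefore rose with DESeq2 or with that filter (0 in each), and 0 to 1 rose over left-out libraries. The log2 ratio of Tcf7l1 to Tcf7l2 ran from -0.21 to 0.40 over left-out libraries, so its sign is not settled. With a pseudocount of 1 the log2 ratio of Lgr6 to Lgr4 differed by -0.95, and over the other alternatives by -1.70 to -1.49. Genes fallen over all genes numbered 3124 on total counts.

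List counts are given here where a fit differed from the main one by more than 1.5-fold, or where a count moved from or to 0. Smaller moves were more common. Over all alternatives 4 to 6 ligands, 5 to 7 nuclear partners and 11 to 14 reported targets fell. On total counts 1 ligand secretion gene rose and 1 fell, 1 cytoplasmic gene rose and 7 fell, and 3 reported targets rose. With upper-quartile scaling 1 ligand secretion gene rose and 1 fell, and 6 cytoplasmic genes fell. Tcf7 lost its call, which left 1 fallen family relative, with DESeq2, limma-voom, no filter and the replicate block. Over left-out libraries 1 to 3 ligand secretion genes rose and 0 to 1 fell, 2 to 5 receptors fell, 1 to 3 cytoplasmic genes rose and 1 to 2 relatives fell. Of 392 refits of named list genes 15 lost the call and 0 changed sign. The cause was not tested.

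Numbers 2 and 4 are in both groups, and the deviations of same-numbered libraries correlated at 0.13 and -0.09. Pairs of unlike number ran from -0.15 to 0.16. So few libraries cannot show whether same-numbered samples share a culture or a batch, and the labels do not say. With the replicate number as a block 6 of the 10 genes fell and 1 rose, 4 ligand secretion genes rose and 3 receptors fell, and over all genes 2133 rose and 1793 fell. Treated replicate 1 and Ctrl replicate 3 have no partner of the same number. The treatment effect in that fit therefore rests on the libraries numbered 2 and 4. Low counts limit Axin2 and Tcf7l1.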
